A study of Mus musculus with 26 samples.

Results

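Lysosomal enzymes, lysosomal membrane proteins, subunits of the vacuolar ATPase and the transcription factors that switch such genes on were followed as a set of 37 named genes in mouse liver. Members were found by looking up each symbol's Ensembl ID in a table of estimated counts with 55642 gene IDs, and all 37 were present and passed the filter on low counts that left 17104 genes. The set holds 8 cathepsins, 10 glycosidases and sulfatases, 4 sphingolipid enzymes and activators, 3 other lumenal proteins, 4 membrane proteins, 5 vacuolar ATPase subunits and 3 transcription factors of the MiT family. From what is known of their cell types, 6 members are taken as macrophage-rich (Ctss, Ctsk, Ctsz, Laptm5, Atp6v0d2 and Grn) and the other 31 as made in most cells. Members and lists were chosen with earlier results of these data known. Differences between the 6 and the 31 are therefore description and not an independent test.

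RNA of whole liver was sequenced in 26 libraries of 4 groups. The reference group was wildtype mice on control chow (n = 5), and another wildtype group had eaten CDAHFD for 2 weeks (n = 6), a fat-rich feed built from L-amino acids with no choline that brings on fatty liver with inflammation. Mice with a heterozygous (n = 7) or a homozygous (n = 8) knockout of Mtarc1, a gene for a molybdenum enzyme of mitochondria, received the same CDAHFD for the same time, so the knockouts share the diet and no knockout on chow was studied. A difference between a knockout and chow therefore holds diet and genotype together, and these cannot be told apart. Which bases of Mtarc1 were removed, the strain, the age and whether each sample is a separate animal are not given in the labels, and the p-values reflect only the spread among the samples as they are.

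Lysosomes are acidic compartments in which hydrolases break down proteins, glycans and lipids brought in from outside the cell or by autophagy. The vacuolar ATPase pumps protons into them, heavily glycosylated membrane proteins such as Lamp1 and Lamp2 line them, and TFEB, TFE3 and MITF enter the nucleus when nutrients are scarce or lysosomes are stressed and bind short sequences near the start sites of lysosomal genes. Hepatocytes make most of these proteins. Macrophages, which digest dying cells and lipid, make more of some of them.

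The letters that MiT factors bind were looked for in RefSeq promoters (build GRCm38.p6, from 250 bases before to 50 bases after the start site), which held an entry for 32 of the 37 members. The core CACGTG lay on either strand in 11 of the 32 members (34.4%), against 7.15% of all 32851 promoters and 8.09% of the 27025 genes they belong to. The longer GTCACGTG, which contains the core and reads CACGTGAC on the other strand, lay in 8 of the 32 (25%), against 2.25% of promoters and 2.55% of genes. Those 8 were Ctsa, Ctsd, Lamp1, Glb1, Gla, Naglu, Mcoln1 and Atp6v0d1, while Ctsl, Gaa and Atp6v1a held only the core. None of the 5 macrophage-rich members with an entry held either motif. Below are the 120 bases before the start site for 4 members with the longer motif, of which Lamp1 and Ctsd rose on the diet and Mcoln1 and Glb1 did not pass the test, and for Ctss and Laptm5, the members with the largest rises. Capitals mark CACGTG, or the whole longer motif where it is present.

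The windows, written 5′ to 3′ on the strand of the gene, are at chr8:13159041-13159160 (plus strand) for Lamp1, chr7:142387828-142387947 (minus strand) for Ctsd, chr8:3500399-3500518 (plus strand) for Mcoln1, chr9:114400958-114401077 (plus strand) for Glb1, chr3:95526666-95526785 (plus strand) for Ctss and chr4:130913196-130913315 (plus strand) for Laptm5.
Lamp1: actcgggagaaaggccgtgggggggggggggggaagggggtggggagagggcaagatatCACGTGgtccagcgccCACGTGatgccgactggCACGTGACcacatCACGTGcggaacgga
Ctsd: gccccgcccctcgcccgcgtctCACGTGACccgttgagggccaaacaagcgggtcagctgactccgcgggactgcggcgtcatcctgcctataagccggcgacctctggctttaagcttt
Mcoln1: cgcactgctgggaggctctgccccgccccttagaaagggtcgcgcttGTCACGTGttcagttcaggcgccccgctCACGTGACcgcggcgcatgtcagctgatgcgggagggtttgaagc
Glb1: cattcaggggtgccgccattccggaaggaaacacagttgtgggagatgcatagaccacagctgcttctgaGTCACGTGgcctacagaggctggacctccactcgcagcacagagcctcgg
Ctss: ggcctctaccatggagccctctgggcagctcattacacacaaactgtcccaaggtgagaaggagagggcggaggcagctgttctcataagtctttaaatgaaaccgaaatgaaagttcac
Laptm5: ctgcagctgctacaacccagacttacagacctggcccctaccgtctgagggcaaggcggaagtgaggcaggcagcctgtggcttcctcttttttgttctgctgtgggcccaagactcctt

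The Lamp1 window held the core 4 times and the longer motif 1 time, and the Mcoln1 window held the longer motif 2 times. In the Ctsd and Glb1 windows it was present 1 time, and the Ctss and Laptm5 windows had no match. Letters that match are not a measured binding site, and a window without them says nothing about the factors.

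Libraries held 19.73 to 29.91 M estimated counts. Mtarc1 was at 264 to 361 CPM (counts per M, scaled by TMM) in chow livers, 193 to 291 in wildtype CDAHFD livers, 112 to 208 in heterozygous and 33.4 to 65.3 in homozygous livers, and every homozygous liver lay below every other liver. Summed CPM of 20 macrophage markers, none of them a member, ran from 380 to 716 in chow, 882 to 1598 in wildtype CDAHFD, 875 to 1244 in heterozygous and 708 to 1214 in homozygous livers. Of these 20 markers, 18 were called higher on the diet in wildtype liver and none lower. Summed CPM of 10 hepatocyte markers ran from 99320 to 128900 in chow and from 62980 to 101500 in wildtype CDAHFD livers, and 4 of the 10 were called lower. In RNA of whole liver, a change in the number of cells of a type and a change in RNA per cell cannot be told apart.

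On CDAHFD, wildtype liver carried more transcript of most lysosomal genes. Of the 37 members, 21 were called higher and 1 lower against chow at an adjusted p under 0.05 in edgeR, where 14.8% of all genes tested were called higher and 12.2% lower. Their median log2 fold change was 0.34, against -0.01 over all genes. The 6 macrophage-rich members were all called higher, with a median of 0.74, and the other 31 had 15 called higher, 1 called lower and a median of 0.28. In 13 members every wildtype CDAHFD liver lay above every chow liver, which held for 7.95% of all genes, and in 1 member every liver lay below, which held for 5.93%. With the 2 wildtype CDAHFD livers of highest macrophage marker level left out, 17 were called higher and 1 lower, and the calls of Ctsk, Gla, Tpp1 and Atp6v1a were lost. That fit called 3153 of 17168 genes either way. Leaving out chow sample 4, the chow liver of highest macrophage marker level, left 18 higher and 1 lower, with 3935 of 17346 genes called either way. Scaled by total counts alone, the median of all genes moved to 0.22 and that of the members to 0.58. Of the members 29 were then called higher and 1 lower, where 6072 of 17104 genes were called either way. The 8 calls gained were Ctsh, Asah1, Arsb, Naglu, Mcoln1, Atp6ap1, Tfe3 and Smpd1, so that these did not pass below depends on the scaling.

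The share of mitochondrial transcripts ran the other way from the members in chow and wildtype CDAHFD livers. Mitochondrial transcripts made up 8.64 to 16.25% of counts in chow and 7.67 to 13.01% in wildtype CDAHFD livers. The 20 most abundant genes made up 26.5 to 32.5% and 23.25 to 26.46%. The chow liver with the lowest mitochondrial share had the highest summed CPM of the 37 members (4808) and the one with the highest share the lowest sum (3422). Wildtype CDAHFD samples 3, 4 and 6, with shares of 7.67 to 8.28%, had sums of 5414 to 6725 CPM, and samples 1, 2 and 5, with shares of 11.54 to 13.01%, had sums of 4933 to 5119 CPM. Every wildtype CDAHFD sum lay above every chow sum. Shares ran from 6.24 to 11.5% in heterozygous and from 6.77 to 11.58% in homozygous livers. Homozygous sample 7, with the highest share of its group, had its lowest sum (4421 CPM). Sample 5, with the lowest share, had 5477 CPM, below sample 2 (5632 CPM). Among heterozygous livers the highest sum (6751 CPM) was at a share of 7.00% and the lowest (5199 CPM) at 9.32%. What part RNA composition has in the differences of diet or genotype was not tested.

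**Figure D1:**
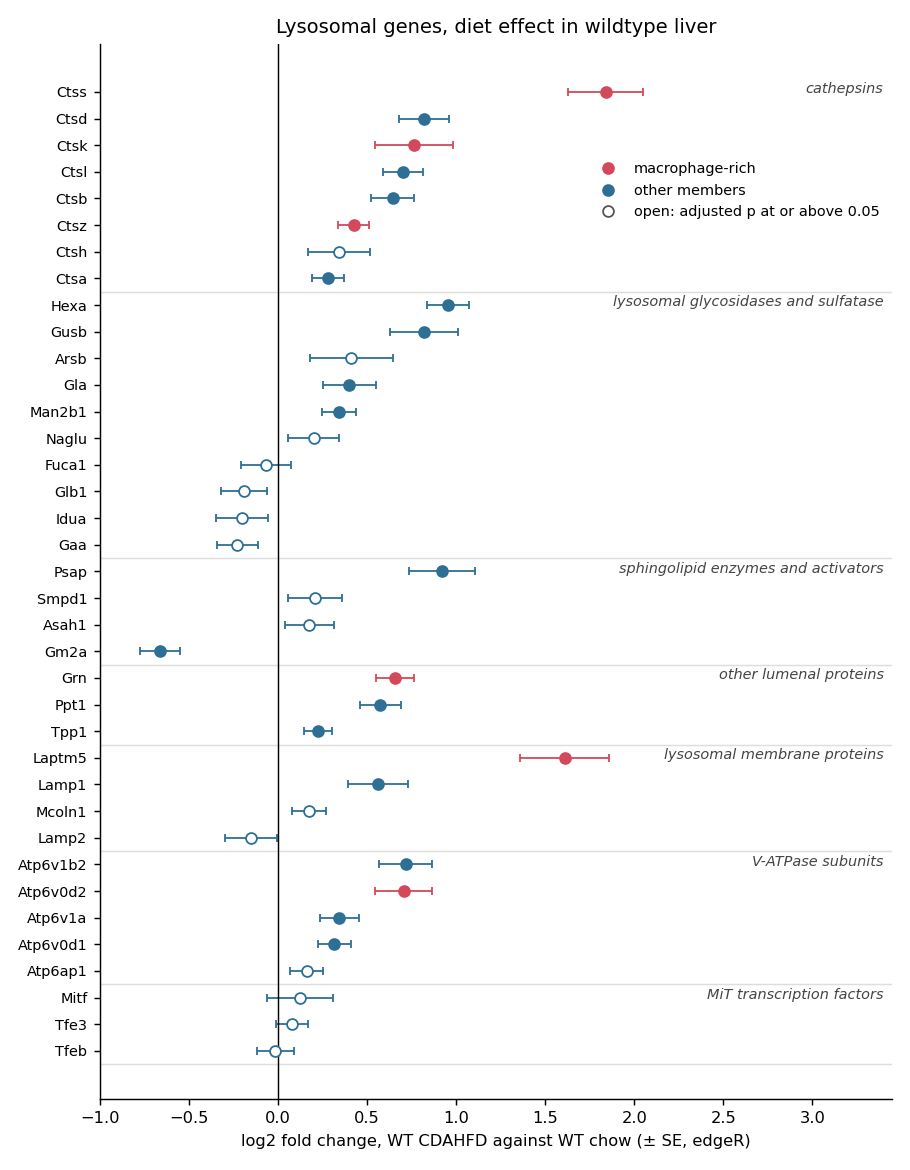
Log2 fold change in wildtype liver on CDAHFD (n = 6) against chow (n = 5) for all 37 members (points) with the standard error (bars), by role; filled points were called at an adjusted p under 0.05 in edgeR. Ctss at 1.84 and Laptm5 at 1.61 lie to the right of the other members, and Gm2a at -0.66 is the filled point to the left of 0.

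Among the cathepsins, the proteases of the lysosome, 7 of 8 rose. Ctss encodes cathepsin S, a cysteine protease that antigen-presenting cells use to trim the invariant chain. Ctss was at 12.8, 14.6, 21.3, 21.7 and 23.4 CPM in the 5 chow livers and at 43.9, 59.7 and 124 CPM (lowest, median and highest) in wildtype CDAHFD livers. Every liver on the diet lay above every chow liver, and the top value stood far from the next, at 70.7. Its log2 fold change was 1.84 ± 0.21 (SE; edgeR adjusted p = 9.13e-07). Without the 2 livers of highest macrophage marker level it was 1.48.

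Ctsk, which encodes the collagen-cleaving cathepsin K of osteoclasts and some fibroblasts, was rare. Chow livers held 0.962, 1.20, 1.37, 1.41 and 1.51 CPM of Ctsk, and wildtype CDAHFD livers 1.36, 2.01 and 3.08 CPM (lowest, median and highest). These ranges overlapped, and the log2 fold change was 0.77 ± 0.22 (edgeR adjusted p = 0.0103). That call was lost without the 2 livers of highest macrophage marker level (log2 fold change 0.50). Of 5 osteoclast markers 2 passed the filter on low counts. Nfatc1, a transcription factor also made in other cells, rose from a mean of 8.78 to 11.3 CPM (log2 fold change 0.37, edgeR adjusted p = 0.0187), and Ocstamp was at 0.94 and 1.51 CPM (0.70, adjusted p = 0.101). Calcr and Oscar did not exceed 0.16 CPM in any library, and Calcr was at 0 in all chow, wildtype CDAHFD and homozygous livers. Their part in the level of Ctsk was not tested.

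Ctsz, for the carboxypeptidase cathepsin Z, ran at 270.1, 276, 276, 284 and 296 CPM in chow and at 349.7, 366 and 439 CPM (lowest, median and highest) in wildtype CDAHFD livers, without overlap. Its log2 fold change was 0.42 ± 0.09 (edgeR adjusted p = 0.000692). Though in the macrophage-rich group, it had a smaller estimate than Ctsd, Ctsl and Ctsb.

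Ctsd encodes the aspartic protease cathepsin D. Chow livers were at 149, 187, 206, 218 and 267 CPM of Ctsd, and wildtype CDAHFD livers at 281, 329 and 509.8 CPM (lowest, median and highest). The groups did not overlap, and Ctsd rose by 0.82 ± 0.14 on the log2 scale (edgeR adjusted p = 9.26e-05). Ctsl, for the endopeptidase cathepsin L, went from 384, 422, 483, 494 and 558 CPM to 693, 754 and 895 CPM, again without overlap (log2 fold change 0.70 ± 0.11). Ctsb, for cathepsin B, averaged 497 ± 66.2 CPM (SD, n = 5) in chow and 776 ± 148 CPM (SD, n = 6) on the diet, and rose by 0.64. Ctsa, for the protective protein that keeps neuraminidase and beta-galactosidase stable, rose by 0.28. Cathepsin H was the exception: Ctsh was at 163 ± 43.2 CPM (SD, n = 5) in chow and 206 ± 47.8 CPM (SD, n = 6) on the diet, which did not pass (log2 fold change 0.34 ± 0.17, edgeR adjusted p = 0.154).

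**Figure D2:**
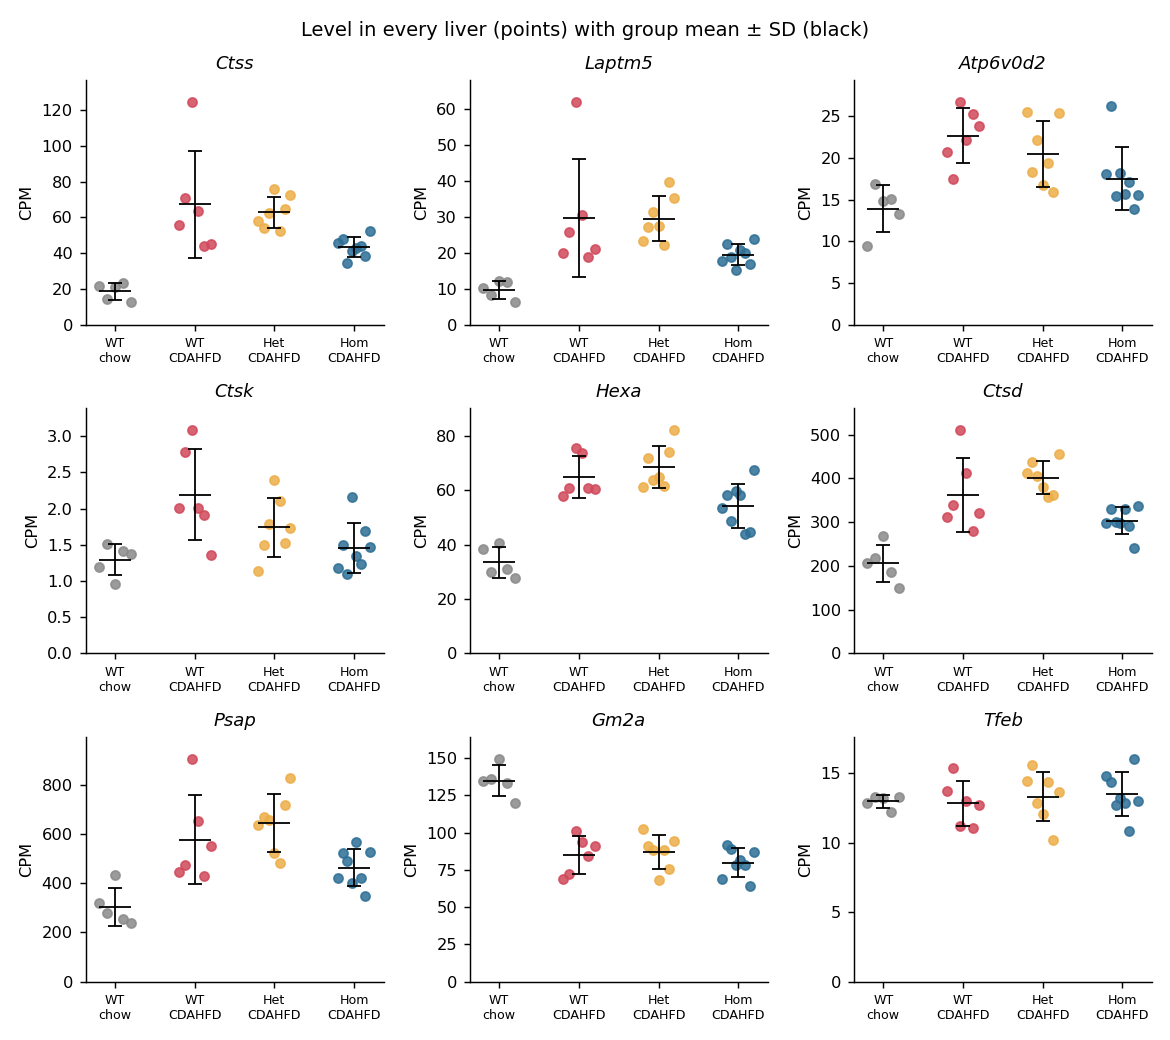
CPM of 9 members in every liver (points), with group mean and SD in black: wildtype chow (n = 5), wildtype CDAHFD (n = 6), Mtarc1 heterozygous (n = 7) and homozygous (n = 8) knockouts on CDAHFD. Ctss, Laptm5 and Hexa of all 3 CDAHFD groups lie above all chow livers, Gm2a lies below them, and Tfeb spans 10.2 to 16.01 CPM over all groups.

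Glycosidases and the sulfatase, which strip sugars and sulfate from glycans and glycolipids, were divided: 4 of 10 rose and the other 6 did not pass. Hexa, the alpha subunit of beta-hexosaminidase, was at 27.7, 29.7, 31.0, 38.3 and 40.7 CPM in chow and at 57.9, 60.8 and 75.4 CPM (lowest, median and highest) in wildtype CDAHFD livers. No liver overlapped, and among the members not taken as macrophage-rich its log2 fold change of 0.95 ± 0.12 was the highest (edgeR adjusted p = 2.88e-06). Gusb, for beta-glucuronidase, went from 11.3, 13.3, 14.1, 14.7 and 18.01 CPM to 16.8, 22.6 and 41.2 CPM, with overlap (0.82 ± 0.19). Smaller rises were those of Gla, for alpha-galactosidase A (0.40), and of Man2b1, for lysosomal alpha-mannosidase (0.34).

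Not called were Arsb, the sulfatase of dermatan sulfate (0.41 ± 0.23), Naglu, which cuts heparan sulfate (0.20 ± 0.14), and Fuca1, for alpha-fucosidase (-0.07 ± 0.14). With TMM scaling some further enzymes had estimates below 0 that did not pass, and scaled by total counts alone every member but Gm2a lay above 0: Glb1, for beta-galactosidase (-0.19 ± 0.13), Idua, which cuts iduronic acid (-0.20 ± 0.15), and Gaa, which digests glycogen (-0.23 ± 0.11). Adjusted p of these 6 in edgeR ran from 0.145 for Gaa to 0.749 for Fuca1.

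The sphingolipid group held opposite changes in a pair of activator proteins. Psap encodes prosaposin, the precursor of the saposins that lift sphingolipids towards their hydrolases. It was at 239.7, 256, 278, 319 and 432 CPM in chow and at 429.5, 512 and 905 CPM (lowest, median and highest) on the diet in wildtype livers. Only the highest chow liver reached into the CDAHFD range, and Psap rose by 0.92 ± 0.19 on the log2 scale (edgeR adjusted p = 0.000526). Gm2a encodes the GM2 activator, which presents the ganglioside GM2 to the beta-hexosaminidase that contains the Hexa subunit.

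Gm2a ran the other way from Hexa. It stood at 120.1, 133, 135, 136 and 149 CPM in chow and at 68.8, 87.5 and 101 CPM (lowest, median and highest) in wildtype CDAHFD livers. All 6 livers on the diet lay below all 5 on chow, and Gm2a fell by 0.66 on the log2 scale (SE 0.11; edgeR adjusted p = 7.41e-05), the only member called lower. Asah1, for acid ceramidase (0.18 ± 0.14, edgeR adjusted p = 0.359), and Smpd1, for acid sphingomyelinase (0.20 ± 0.15, adjusted p = 0.34), did not pass.

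All 3 other lumenal proteins rose. Grn encodes progranulin, a precursor of granulins that travels to lysosomes with prosaposin or sortilin. Chow livers held 159, 163, 165, 169 and 180.0 CPM of Grn, and wildtype CDAHFD livers 218, 276 and 299.7 CPM (lowest, median and highest). They did not overlap (log2 fold change 0.66 ± 0.11, edgeR adjusted p = 4.76e-05). Ppt1, which removes palmitate from proteins, rose by 0.57, and the tripeptidyl peptidase Tpp1 by 0.22.

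Of the membrane proteins, Laptm5 and Lamp1 rose. Laptm5 encodes a lysosomal membrane protein of blood-derived cells. It was at 6.44, 8.18, 10.1, 11.8 and 12.2 CPM in chow and at 18.98, 23.6 and 62.0 CPM (lowest, median and highest) in wildtype CDAHFD livers. The groups were apart, and 1 diet liver was far above the next value, 30.5. Laptm5 had a log2 fold change of 1.61 ± 0.25 (edgeR adjusted p = 3.38e-05), and of 1.22 without the 2 livers of highest macrophage marker level.

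Lamp1 and Lamp2, the main glycoproteins of the lysosomal membrane, differed in their estimates. Lamp1 averaged 273 ± 68.4 CPM (SD, n = 5) in chow and 403 ± 84.5 CPM (SD, n = 6) on the diet and rose by 0.56 ± 0.17 (edgeR adjusted p = 0.0134). Lamp2 averaged 445 ± 97.4 CPM (SD, n = 5) and 400.4 ± 70.8 CPM (SD, n = 6), and did not pass (-0.15 ± 0.15, edgeR adjusted p = 0.478). Mcoln1, the calcium channel TRPML1 and itself a target of TFEB, did not pass (0.17 ± 0.10).

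Among vacuolar ATPase subunits 4 of 5 rose. Atp6v0d2, the d subunit isoform of osteoclasts, kidney and some macrophages, was at 9.44, 13.3, 14.8, 15.1 and 16.9 CPM in chow and at 17.5, 22.99 and 26.7 CPM (lowest, median and highest) in wildtype CDAHFD livers. Those ranges did not overlap (log2 fold change 0.71 ± 0.16, edgeR adjusted p = 0.00161). Its widely expressed counterpart Atp6v0d1 rose by 0.31 ± 0.09. Atp6v1b2, the widely expressed B subunit of the catalytic head, went from 26.98, 28.8, 28.9, 34.1 and 38.6 CPM to 44.3, 46.8 and 73.6 CPM without overlap (0.72 ± 0.15). Atp6v1a, the ATP-cleaving subunit, rose by 0.34, and the accessory subunit Atp6ap1 did not pass (0.16 ± 0.09).

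None of the 3 MiT factors, which are controlled largely through entry into the nucleus, passed the test, although Tfe3 was called higher when libraries were scaled by total counts alone. Tfeb was at 12.2, 12.8, 13.2, 13.3 and 13.3 CPM in chow and at 11.03, 12.8 and 15.3 CPM (lowest, median and highest) in wildtype CDAHFD livers (log2 fold change -0.02 ± 0.11, edgeR adjusted p = 0.932). Tfe3 was at 20.2, 23.2, 23.2, 26.8 and 30.1 CPM, then 23.7, 26.8 and 27.9 CPM (0.08 ± 0.09, adjusted p = 0.545). Mitf was at 4.48, 4.49, 5.18, 5.39 and 5.83 CPM, then 3.57, 5.45 and 7.73 CPM (0.12 ± 0.18, adjusted p = 0.659). In all 3, the chow range overlapped that of the diet. Protein and its place in the cell were not measured.

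Beyond the 37, of 39 other lysosomal enzymes and membrane proteins 14 rose and 1 fell, where 14.8% of all genes tested were called higher and 12.2% lower, and their median log2 fold change was 0.26. Those of low p included Lgmn, for the asparagine-cutting protease legumain (1.24 ± 0.13, edgeR adjusted p = 2.15e-07), the sulfatide-cutting Arsa (1.35 ± 0.19) and Aga, which cuts the bond between glycan and asparagine (0.56 ± 0.13). The gene that fell was Hyal1, for a hyaluronidase (-0.51). Of 13 other vacuolar ATPase subunits 7 rose and 1 fell: those with the lowest p among risers were Atp6v0e (0.68), Atp6v0c (0.35), Atp6v0b (0.28) and Atp6ap2 (0.45), and Atp6v0a1 fell by 0.33.

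The GTPases and kinase complexes that hold MiT factors at the lysosome had 4 of 17 called higher and 3 lower, where 14.8% and 12.2% of all genes were. Rragd, a Rag GTPase and a known MiT target, had the lowest p: it went from a mean of 1.73 ± 0.29 CPM (SD, n = 5) to 3.71 ± 1.5 CPM (SD, n = 6), a log2 fold change of 1.10 ± 0.24 (edgeR adjusted p = 0.000981). Rragc rose by 0.41 and Lamtor5 by 0.22, while Tsc1, which restrains the kinase mTOR, fell by 0.35.

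Against chow, heterozygous knockouts on the diet had 24 members called higher and 1 lower (19.3% and 17.9% of all genes), and homozygous knockouts 14 higher and 2 lower (12.3% and 10.8%). Of the 14, Ctsz and Tpp1 lost their call under 15 and 14 of the alternatives tried, which list the fit without chow sample 4 under separate names. These comparisons and the wildtype diet comparison share the 5 chow livers. Medians over the 37 members were 0.34 in wildtype, 0.45 in heterozygous and 0.21 in homozygous livers. Over the 6 macrophage-rich members they were 0.74, 0.60 and 0.40 in that order, and over the other 31 they were 0.28, 0.41 and 0.19. Every liver lay above every chow liver in 17 members for heterozygous livers (7.58% of all genes) and in 5 members for homozygous livers (4.61%), namely Ctsb, Ctsl, Ctss, Hexa and Laptm5.

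**Figure D3:**
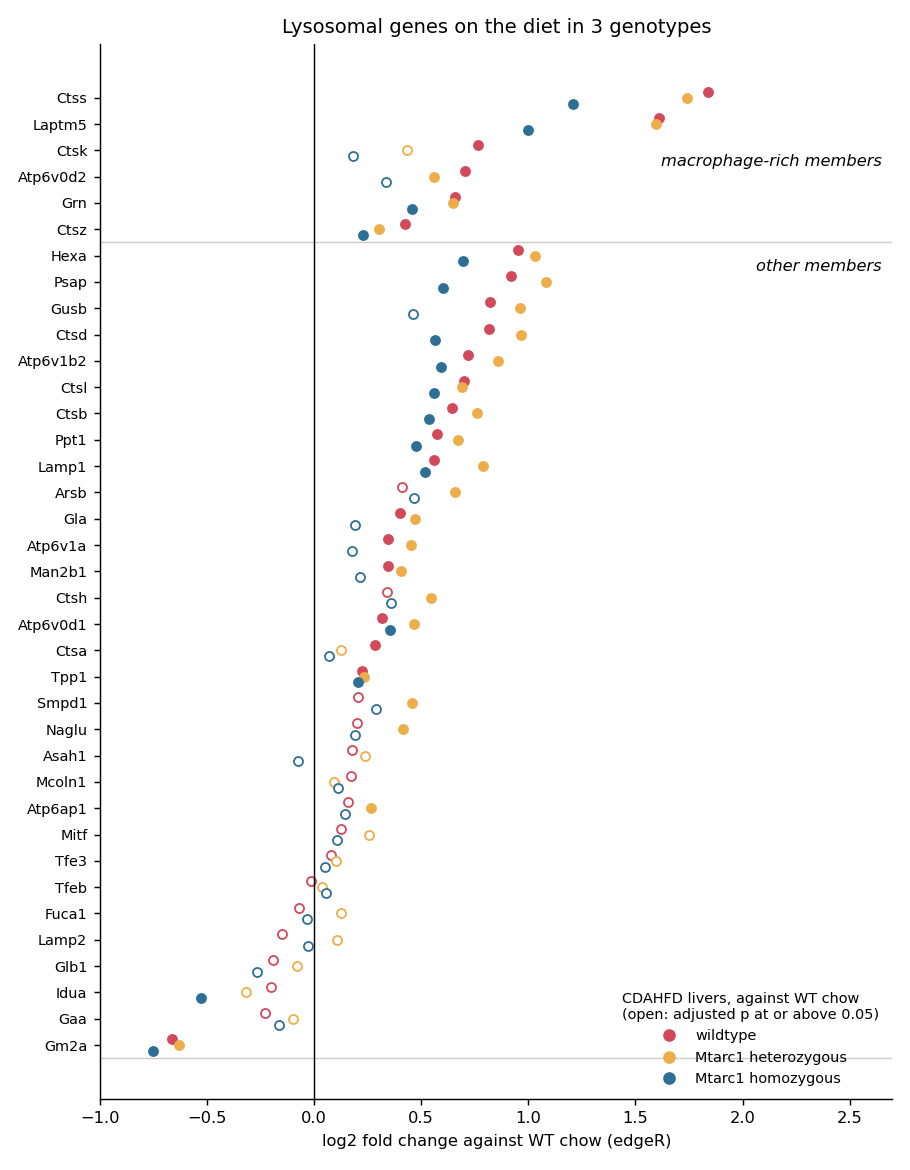
Log2 fold change against wildtype chow (n = 5) in wildtype (n = 6), Mtarc1 heterozygous (n = 7) and homozygous (n = 8) livers on CDAHFD for each member, macrophage-rich members on top; filled points were called at an adjusted p under 0.05 in edgeR. Ctss lies at 1.84, 1.74 and 1.21 in that order and Gm2a at -0.66, -0.63 and -0.75; the 3 estimates share the chow livers.

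Ctss had log2 fold changes against chow of 1.84, 1.74 and 1.21 in wildtype, heterozygous and homozygous livers, and Laptm5 of 1.61, 1.60 and 1.00, all called. For Ctsk they were 0.77, 0.43 and 0.18, called in wildtype alone, and for Atp6v0d2 0.71, 0.56 and 0.33, called in wildtype and heterozygous livers. Psap was at 0.92, 1.08 and 0.60 and Ctsd at 0.82, 0.97 and 0.56, called in each group. Gm2a was called lower in each (-0.66, -0.63 and -0.75), with no liver on the diet reaching the lowest chow liver. Idua was also called lower in homozygous livers, where all 8 were at 5.27 to 7.16 CPM and the chow livers at 8.18 to 10.6 CPM (-0.53 ± 0.14, edgeR adjusted p = 0.00673). Its estimates were -0.20 in wildtype and -0.32 in heterozygous livers, neither called. A call in some groups and not in another is no test of the groups against each other, which follows.

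Set directly against wildtype livers on the same diet, no lysosomal member was called in homozygous knockouts. edgeR called 0 of 37, with 12 at an unadjusted p under 0.05 and 0.00585% of all genes called, and 1705 genes at an unadjusted p under 0.05. DESeq2 and limma voom also called 0 of 37, where DESeq2 called 0.357% of all genes. The estimates lay below 0 in 29 of the 37 members, with a median of -0.11 against 0.01 over all genes. Over the macrophage-rich members the median was -0.48 and all 6 lay below 0, against -0.08 over the other 31.

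The 6 members with the lowest p in this comparison were Ctss, Ctsk, Laptm5, Atp6v0d2, Ctsa and Ctsz. Ctss ran at 34.8, 43.4 and 52.5 CPM (lowest, median and highest) in homozygous against 43.9, 59.7 and 124 CPM in wildtype CDAHFD livers, a log2 difference of -0.63 ± 0.18 (edgeR adjusted p = 0.202). Laptm5 ran at 15.4, 19.5 and 23.9 CPM against 18.98, 23.6 and 62.0 CPM (-0.61 ± 0.21, edgeR adjusted p = 0.293). For both genes the ranges overlapped and the farthest value was that of wildtype CDAHFD sample 3. Ctsk was at 1.09, 1.41 and 2.16 CPM against 1.36, 2.01 and 3.08 CPM (-0.59 ± 0.19, edgeR adjusted p = 0.275). Atp6v0d2 was at 13.9, 16.4 and 26.3 CPM against 17.5, 22.99 and 26.7 CPM (-0.37 ± 0.14, edgeR adjusted p = 0.336). Differences of Ctsa (-0.21 ± 0.08) and Ctsz (-0.19 ± 0.08) were smaller.

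Without wildtype CDAHFD samples 2 and 3, the livers with the highest macrophage marker levels of that group, the median over the macrophage-rich members was -0.25 in place of -0.48, and Ctss was at -0.26. In the larger of the 2 series of library numbers (17 libraries), the median was -0.26 and Ctss again at -0.26. The macrophage markers moved with these members: 19 of 20 had estimates below 0 in homozygous against wildtype CDAHFD livers, with a median of -0.43 and 0 called in edgeR (12 at an unadjusted p under 0.05). All 10 stellate and fibroblast markers also lay below 0, with a median of -0.36 and 7 at an unadjusted p under 0.05, and so did 9 of 10 endothelial markers, with a median of -0.21 and 0 at an unadjusted p under 0.05. What part any of these has in the result was not tested.

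In heterozygous knockouts 0 of 37 members were called against wildtype CDAHFD livers, with 0 at an unadjusted p under 0.05 (1444 of all genes). edgeR called 0% of all genes and DESeq2 0.0117%, and neither DESeq2 nor limma voom called a member. Estimates lay above 0 in 27 of the 37, with a median of 0.10, and all 6 macrophage-rich members lay below 0 (median -0.11). That direction did not hold in the larger series of library numbers, where the median of the 6 was 0.14. Without wildtype CDAHFD samples 2 and 3 the median of the 6 was -0.0086, below 0 but smaller in size. The lowest p belonged to Ctsa (-0.16 ± 0.08), Lamp2 (0.26 ± 0.14), Atp6v0d1 (0.15 ± 0.08), Smpd1 (0.25 ± 0.14), Ctsk (-0.33 ± 0.19) and Naglu (0.21 ± 0.13), at edgeR adjusted p of 0.569 to 0.575. Lamp2 ran at 367, 501 and 548 CPM (lowest, median and highest) in heterozygous and 320.3, 397 and 494 CPM in wildtype CDAHFD livers, and Naglu at 29.0, 33.0 and 45.4 against 20.5, 30.1 and 36.3 CPM. Both pairs of ranges overlapped. Of the hepatocyte markers 8 of 10 lay above 0 in this comparison (median 0.22, 1 at an unadjusted p under 0.05). Below 0 lay 18 of 20 macrophage markers (median -0.16), 7 of 10 stellate and fibroblast markers (median -0.21) and all 10 endothelial markers (median -0.21). Of these 3 lists 1, 2 and 2 markers were at an unadjusted p under 0.05. Their part in the result was not tested.

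Homozygous against heterozygous livers gave the same count, 0 of 37 in edgeR, with 13 members at an unadjusted p under 0.05, 0.00585% of all genes called and 1219 genes at an unadjusted p under 0.05. DESeq2 called 0.0994% of genes and, like limma voom, 0 members. Estimates lay below 0 in 35 of the 37, with a median of -0.19 against -0.0013 over all genes. The macrophage-rich and the other members had medians of -0.24 and -0.19, and in the larger series of library numbers -0.32 and -0.18. Ctss, Ctsk, Laptm5 and Atp6v0d2 alone had a median of -0.39. Of the macrophage markers 18 of 20 lay below 0 (median -0.22, 7 at an unadjusted p under 0.05), as did 9 of 10 stellate and fibroblast markers (median -0.37, 4 at an unadjusted p under 0.05), and their part in the result was not tested. Ctsd was the member with the lowest p: all 8 homozygous livers, at 242, 299 and 336 CPM (lowest, median and highest), lay below all 7 heterozygous livers, at 357, 405 and 457 CPM. Such a separation downwards was seen in 0.0409% of all genes and in 1 member. The log2 difference of Ctsd was -0.40 ± 0.12 (edgeR adjusted p = 0.339).

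Next came Hexa (-0.33 ± 0.10), Gusb (-0.50 ± 0.16), Ctss (-0.53 ± 0.17), Psap (-0.48 ± 0.16) and Atp6v1a (-0.27 ± 0.09), with edgeR adjusted p of 0.373 to 0.483. Psap ran at 348, 457 and 566 CPM in homozygous and at 482, 658 and 828 CPM in heterozygous livers (lowest, median and highest), and Hexa at 43.8, 55.8 and 67.4 against 61.1, 65.0 and 82.0 CPM. In each the highest homozygous livers lay within the heterozygous range.

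The MiT factors differed little in level among genotypes. Tfeb was at 10.2, 13.6 and 15.5 CPM (lowest, median and highest) in heterozygous and 10.8, 13.1 and 16.01 CPM in homozygous livers. Tfe3 ran at 23.6, 25.7 and 29.3 CPM and at 23.3, 25.5 and 29.0 CPM, and Mitf at 4.46, 5.20 and 7.94 CPM and at 4.21, 5.57 and 6.91 CPM. All overlapped, and their edgeR adjusted p in the comparisons between genotypes lay between 0.76 and 0.99. Of the other lysosomal enzymes, other vacuolar ATPase subunits and regulators, edgeR called 0 between genotypes, with 4, 1 and 1 at an unadjusted p under 0.05 in homozygous against wildtype CDAHFD livers, 1, 1 and 2 in heterozygous against wildtype and 6, 1 and 1 in homozygous against heterozygous livers. In homozygous against wildtype CDAHFD livers the lowest p of each list belonged to Lgmn (-0.36, adjusted p = 0.239), Atp6v0b (-0.14, adjusted p = 0.442) and Rragd (-0.52, adjusted p = 0.354).

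Among the 21 CDAHFD livers, members were also set against the level of macrophage markers, taken as the mean log2 CPM of the 20 markers. The 5 chow livers form a separate cluster and were left out. Only the 37 members were tested in this way, so the share of all genes that would pass is not known. In 37 permutation tests (100000 draws, two-sided, Benjamini-Hochberg adjusted), 7 members passed: Ctss (r = 0.88, rho = 0.84, p = 1e-05, the smallest the draws can give, adjusted p = 0.00037), Laptm5 (r = 0.73), Ctsk (r = 0.71), Ctsd (r = 0.63), Grn (r = 0.59), Hexa (r = 0.57) and Gusb (r = 0.56). Spearman rho of the last 6 was 0.72, 0.67, 0.62, 0.53, 0.61 and 0.54 in that order, with permutation p of 0.00041, 0.00124, 0.004, 0.0146, 0.0043 and 0.0141, of which Grn and Gusb did not pass adjustment (both adjusted p = 0.0772). The Pearson permutation p of the same 6 was 0.00017, 0.00032, 0.00234, 0.00508, 0.00705 and 0.00907.

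Of the macrophage-rich members 4 of 6 passed (median r 0.65) and of the others 3 of 31 (median r 0.23). Ctsz (r = 0.28) and Atp6v0d2 (r = 0.46) did not pass. Without the livers farthest from the median, wildtype CDAHFD 3 and homozygous 5, Ctss alone passed (r = 0.83), and Laptm5 and Ctsk were at r = 0.60 each, so those relations rest in part on these livers. Within the larger series of library numbers (n = 13) 1 member passed, Ctss (r = 0.88), and in the smaller (n = 8, exact permutation test) 1, Ctsk (r = 0.91). By exact permutation within groups none of the 7 passed. In heterozygous livers (n = 7) 8 of the 37 members had r above 0, against 31 of 37 over all 21 livers, and the 1 member that passed ran the other way, Atp6v0d1 (r = -0.98, adjusted p = 0.022, exact permutation test). In homozygous livers 0 passed. In wildtype CDAHFD livers (n = 6) the smallest p of the exact permutation test is 0.00139. No member could pass alone there after adjustment over 37, only several together, so the 0 there carries little information. Ctss was at r = 0.50, 0.76 and 0.97 in heterozygous, homozygous and wildtype CDAHFD livers. The 21 livers pool groups that differ in mean. With each group's mean removed, Ctss was at r = 0.81, Laptm5 at 0.61, Ctsk at 0.59, Ctsd at 0.50, Grn at 0.42, Gusb at 0.41 and Hexa at 0.33, and the medians of the macrophage-rich and other members were 0.50 and 0.17. The remaining macrophage-rich members, Ctsz and Atp6v0d2, were then at r = -0.06 and 0.18. Gla, not taken as macrophage-rich, was at 0.40, so the 2 parts overlapped. The macrophage level also ran with that of 10 stellate and fibroblast markers (r = 0.72). Against that stellate and fibroblast level, Ctss was at r = 0.74, Ctsk at 0.74 and Laptm5 at 0.64. Ctsd, Grn, Hexa and Gusb were at 0.40, 0.39, 0.43 and 0.38. How far each list bears on the members was not tested.

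Against the mean log2 CPM of the 10 hepatocyte markers, a relation added after the data were seen, 14 of 37 members passed in 37 permutation tests. These tests too covered the members only, so the share of all genes that would pass is not known. Of the 31 not taken as macrophage-rich, 12 passed with r above 0: Ctsh (r = 0.86, rho = 0.81), Lamp2 (0.81, 0.81), Atp6v0d1 (0.81, 0.75), Fuca1 (0.80, 0.84), Smpd1 (0.80, 0.81), Gaa (0.78, 0.86), Arsb (0.69, 0.63), Lamp1 (0.68, 0.69), Gm2a (0.61, 0.63), Naglu (0.56, 0.63), Man2b1 (0.53, 0.64) and Glb1 (0.51, 0.49). Their permutation p for r ran from 1e-05, the smallest the draws can give, to 0.0186 for Glb1, whose rho did not pass adjustment (adjusted p = 0.0594). Ctsk (r = -0.71, rho = -0.71) and Idua (r = -0.55, rho = -0.29) passed with r below 0, Idua by Pearson's r alone.

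Without wildtype CDAHFD 2 and heterozygous 4, the livers farthest from the median hepatocyte level, 11 members passed, and Idua was at r = -0.07, so its relation rests on those livers. The larger series of library numbers gave 10 (n = 13), and the smaller 2 by exact permutation (n = 8). Within groups the exact permutation test gave 9 in homozygous and 3 in heterozygous livers. In wildtype CDAHFD livers (n = 6) it gave 0, where a member at the smallest possible p alone cannot pass: Gaa, at r = 0.98, had an adjusted p of 0.0514. Ctsh was at r = 0.98 and 0.99 in heterozygous and homozygous livers, and at 0.70 in wildtype CDAHFD livers. The members that followed the hepatocyte markers closely, Ctsh, Lamp2, Fuca1, Smpd1 and Gaa, were not called in the wildtype diet comparison, in which 4 of the 10 hepatocyte markers were called lower, while Atp6v0d1 was called higher. Scaled by total counts alone, Ctsh and Smpd1 were called higher there, and Ctsh also without chow sample 3. What part the hepatocyte share of the RNA has in their levels was not tested.

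**Figure D4:**
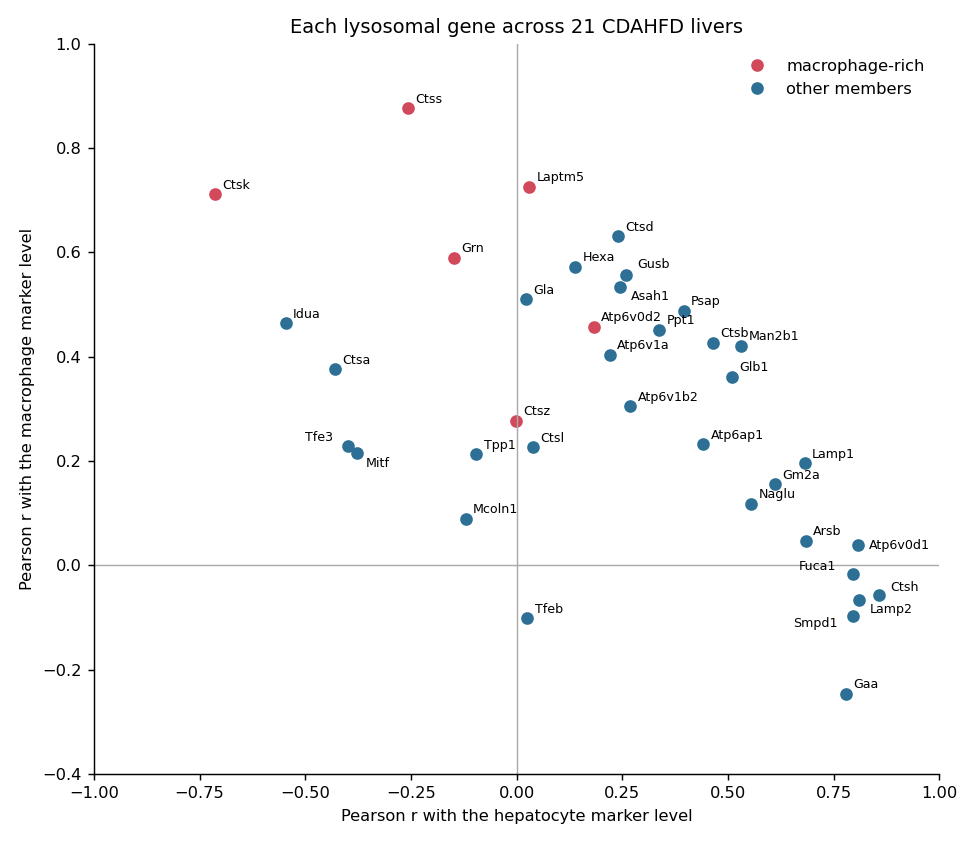
Pearson r over 21 CDAHFD livers of each member's log2 CPM with the hepatocyte marker level (horizontal) and with the macrophage marker level (vertical). Ctss, Ctsk and Laptm5 lie at the top, with r of 0.88, 0.71 and 0.73 against macrophage markers, and Ctsh, Lamp2, Atp6v0d1, Fuca1, Smpd1 and Gaa at the right, with r of 0.78 to 0.86 against hepatocyte markers.

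**Figure D5:**
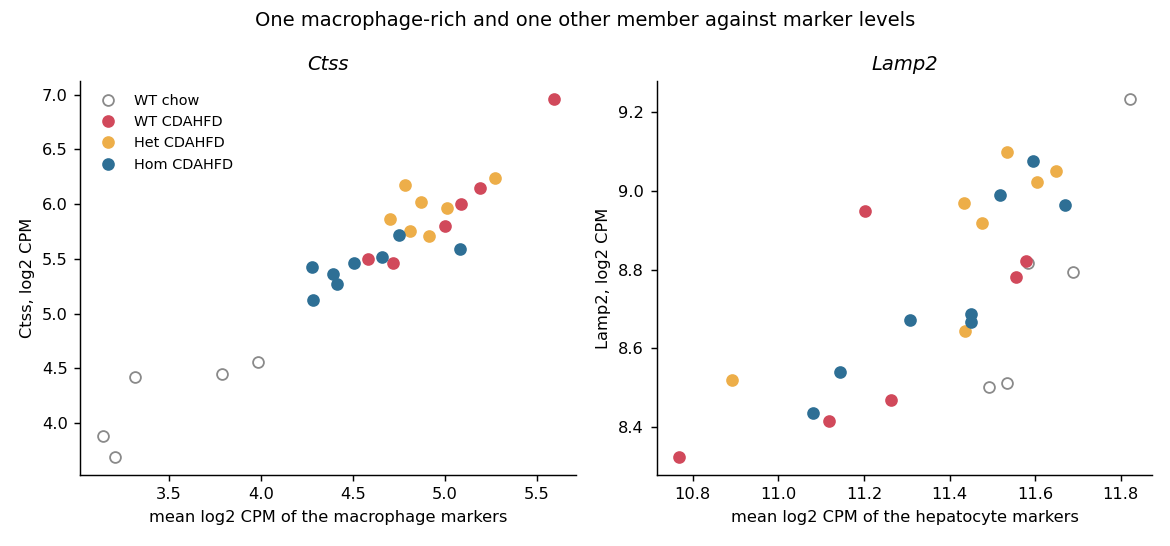
Ctss against the macrophage marker level (left) and Lamp2 against the hepatocyte marker level (right), each point a liver on log2 scales, open for wildtype chow. Over the 21 CDAHFD livers r is 0.88 for Ctss and 0.81 for Lamp2; the chow livers, in which Ctss lies below every CDAHFD liver, are not in these values.

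Some members share exon bases with a neighbour in the GENCODE annotation of GRCm38. On the opposite strand, Ctsb overlaps Fdft1, Ctsa overlaps Neurl2 and Pltp, Lamp1 overlaps Grtp1, Hexa overlaps Tmem202, Ppt1 overlaps Cap1 and Idua overlaps Slc26a1 and Dgkq. Also on the opposite strand, Arsb overlaps the noncoding Gm26527 (longest overlap 1719 bases) and Gm47210, and Ctsl the antisense Gm47123 (977 bases). Shorter overlaps are those of Grn with Fam171a2 (68 bases) and of Ctsz with Nelfcd (10 bases). Ctsl overlaps a pseudogene and Ctsd and Glb1 another gene on their own strand. The sources used here do not say whether strand was used in counting, so reads of these pairs may have been split or shared, and the values of these members carry that uncertainty.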

How the data were processed

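Total RNA of liver was taken with a column kit and built into libraries with NEBNext Ultra II reagents, as the labels' protocols state. The deposited values were estimated counts per gene, not normalized (54.4% of the values above 0 whole), with cutadapt 3.5, Salmon 1.4.0 and the builds GRCm39 and mm39 named in the submitters' processing notes; strand use and the summing to genes are not given in the sources used here. Columns matched library names (0 unused), and groups came from the titles. GENCODE names of GRCm38 matched 51475 IDs (92.5%).

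Counts were rounded and fitted for all 26 libraries together in edgeR 4.0.16 (R 4.3.3) with TMM scaling, filterByExpr and robust quasi-likelihood tests; p-values were adjusted after Benjamini and Hochberg over 17104 genes, with calls at an adjusted p under 0.05. CPM uses the TMM-scaled sums of the genes tested, and log2 CPM a prior count of 2. CPM is not per length and is compared within a gene only. The procedure was tested on simulated counts. Alternatives were DESeq2 1.42.0, voom in limma 3.58.1, other scaling, no filter, other sets of libraries, a replicate block, the library number series and each replicate left out. Correlations of samples used permutations, exact for up to 8 livers. The biological coefficient of variation was 21.5%.

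The members and lists were chosen with earlier results of these data known. By rule the text gives values by library for the macrophage-rich members, the MiT factors, up to 6 other called members with the largest rises and falls on the diet, the 6 of lowest p per genotype comparison, and up to 4 called genes of each other pathway list. Hyal1, Atp6v0a1, Rragc, Lamtor5, Idua in the chow comparison, Mtarc1 and members named with shorter values were added. Protein sequences of members were not analysed here. A gene that the naming rule picks among the other lysosomal genes is not reported here.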

Additional observations from a re-analysis of the deposited data

Results flagged for a closer look

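In each of the 4 groups, every member was screened for a highest or lowest liver that stood apart from the other livers by more than Dixon's 95% critical value. This marked 11 of 148 sets of values, where chance alone marks about 1 in 20, or 7.4 of 148.

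Wildtype CDAHFD sample 3, the liver with the highest macrophage marker level, held 4 of the 11. It was highest in its group for Ctss at 124 CPM (next 70.7), Laptm5 at 62.0 CPM (next 30.5), Atp6v1b2 at 73.6 CPM (next 54.0) and Ppt1 at 43.9 CPM (next 33.2). Heterozygous sample 4 was lowest in its group for Ctsh at 149 CPM (next 219) and Atp6v0d1 at 51.7 CPM (next 61.1), genes whose levels ran with the hepatocyte markers over the CDAHFD livers.

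The remaining 5 fell on 5 livers. Heterozygous sample 7 was highest for Naglu at 45.4 CPM (next 34.1), and homozygous sample 2 for Atp6v0d2 at 26.3 CPM (next 18.1). Homozygous sample 7 was lowest for Ctsd at 242 CPM (next 292), and homozygous sample 6 for Tpp1 at 80.5 CPM (next 92.5). Chow sample 3 was highest for Arsb at 26.3 CPM (next 15.7).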

How the results depend on the processing

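Scaled by total counts alone, the median log2 fold change of all genes moved to 0.22 in wildtype, 0.194 in heterozygous and 0.204 in homozygous CDAHFD livers against chow, and the medians of the members to 0.58, 0.65 and 0.41. Homozygous livers against chow then had 27 members called, without Idua, where 5650 of 17104 genes were called. With the 17 libraries of the larger number series alone, wildtype livers had 14 members called on the diet (13 higher, 1 lower), where 2264 of 17132 genes were called. The calls of Ctsa, Ctsk, Lamp1, Gla, Man2b1, Tpp1, Atp6v0d1 and Atp6v1a were lost. In heterozygous against wildtype CDAHFD livers of the same series, the median of the 6 macrophage-rich members turned from -0.11 to 0.14, Ctsk among them (also 0.14). The cause was not tested, and the smaller series, with 1 chow library, was not fitted alone. Leaving out each replicate gave 19 to 22 members called in wildtype, 20 to 26 in heterozygous and 12 to 20 in homozygous livers against chow, and 0 in each comparison between genotypes. RLE scaling, DESeq2, limma voom, no filter, 2-group fits and the number series as a term gave 20 to 22 calls in wildtype, 25 in heterozygous and 14 to 17 in homozygous livers against chow, and 0 between genotypes. Gla lost its wildtype diet call under 17 alternatives and Tpp1 under 11, and against chow in homozygous livers Ctsz lost its call under 15 and Tpp1 under 14. Each of these counts repeats the fit without chow sample 4, which is also the chow liver of highest macrophage marker level.

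Sample numbers were shared between groups. The 34 same-numbered pairs from different groups correlated at r of -0.371 to 0.316 (median 0.068), with 16 above 0.1. The 217 pairs of other numbers ran from -0.363 to 0.461 (median -0.0044), with 55 above 0.1. These values cannot decide whether the numbers pair the samples, because low sample numbers also hold the smaller series of library numbers. No pairing is given in the labels. With a replicate block 21 members were called in wildtype, 25 in heterozygous and 15 in homozygous livers against chow, and 0 between genotypes. Of 17104 genes, that fit called 4464, 5744 and 3119 against chow in the same order.

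Of 7 members related to the macrophage marker level, 1 passed without the livers farthest from the median, 1 in each series of library numbers and 0 within any of the 3 groups; the 1 member that passed in heterozygous livers, Atp6v0d1, had a negative r and is not among the 7. With other markers in their place the counts were 14 (hepatocyte), 3 (stellate and fibroblast) and 0 (endothelial). The share over all genes was not computed for any of these counts. Depth limits Ctsk and Mitf most, the members with the fewest counts per library.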
